A study of Mus musculus with 4 samples.

Results

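Lymphocytes that held Il13 or Il5 transcripts were picked out of 4 single-cell 3′ RNA libraries of BALB/c mouse back skin. A member cell had at least 2 UMIs (unique molecular identifiers, 1 per captured transcript) of Il13 and Il5 together, at least 2 of Cd3e, Cd3d, Cd3g, Gata3 and Il7r together, at most 2 of the macrophage genes C1qa, C1qb and C1qc, and at most 2 of the mast cell and basophil genes Cpa3, Mcpt8 and Mcpt4. The rule found 125 members among 28607 cells: 35 in WT, 80 in Cd226-/-, 9 in naive CD45+ and 1 in naive CD45- skin. The members were thus chosen by their Il13, Il5, CD3, Gata3 and Il7r counts, and the levels of these genes are a description.

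The WT and the Cd226-/- library each held skin cells pooled from 3 mice that had received 25 µg of the mutagen DMBA once and, from 1 week later, 5 µg of the tumour promoter TPA weekly 3 times. These cells were taken at 3 weeks and carried both CD45+ (leukocyte) and CD45- (non-leukocyte) fractions. The 2 naive libraries held CD45+ or CD45- cells of untreated skin, each a pool of WT and Cd226-/- cells. Cd226 codes for DNAM-1, an activating receptor of T and NK cells, and its loss in Cd226-/- mice is not limited to 1 cell type. Each group was a single library, so no test was possible: every interval in parentheses is an exact 95% interval of counting error only, and every difference is one between these libraries. Levels are given as CPM, the UMIs of a gene per 1000000 gene UMIs summed over the cells of a group.

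Interleukin-13 and interleukin-5 are the effector cytokines of type 2 immunity. IL-13 acts on epithelium, fibroblasts and macrophages, and IL-5 feeds eosinophils. In skin both can come from group 2 innate lymphoid cells (ILC2), which lack the T-cell receptor, from CD4 T helper 2 (Th2) cells, and from mast cells and basophils, which the rule kept out. Both lineages use the transcription factor GATA3, and skin-resident T cells that make IL-17 can also hold type 2 transcripts.

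Il13 and Il5 lie in one cytokine cluster with Il4 on mouse chromosome 11 (Il4 at chr11:53612460-53618665, Il13 at chr11:53631323-53634702, Il5 at chr11:53720794-53725103). The 250 bases before each start are shown, since these are the genes that define the cells and GATA3 marks both lineages. Sequences are from RefSeq (GRCm38.p6), 5′ to 3′ on the gene's own strand, with capitals for the GATA motif found.
Il13, chr11:53634703-53634952, minus strand: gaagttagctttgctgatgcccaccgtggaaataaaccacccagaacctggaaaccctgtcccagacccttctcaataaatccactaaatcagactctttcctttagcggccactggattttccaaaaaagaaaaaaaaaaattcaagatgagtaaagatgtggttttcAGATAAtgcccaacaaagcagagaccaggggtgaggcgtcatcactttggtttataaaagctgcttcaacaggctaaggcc
Il5, chr11:53720544-53720793, plus strand: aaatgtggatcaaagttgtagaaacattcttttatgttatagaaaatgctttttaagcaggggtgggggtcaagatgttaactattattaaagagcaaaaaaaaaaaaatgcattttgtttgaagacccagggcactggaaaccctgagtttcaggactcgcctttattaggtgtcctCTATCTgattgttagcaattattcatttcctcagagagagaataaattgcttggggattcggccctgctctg
The motifs searched on both strands had 6 bases: A or T, then GATA, then A or G. Il13 holds AGATAA starting 81 bases before its start, and Il5 holds CTATCT, the reverse complement of AGATAG, 72 bases before its start. Of 32851 RefSeq mouse promoter windows of this length, 26.5% hold at least 1 of these motifs, and a match is a description of the letters only.

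Libraries held 42043869 to 81406730 gene UMIs, with medians of 6676 to 9214.5 UMIs per kept cell and 6 to 21 kept barcodes shared by any pair of libraries. No member barcode was a member in a second library; 1 WT member barcode was also kept in Cd226-/-. The Cd226 genotype was read first. Cd226 itself had 6 UMIs in 5 of 17 CD3-positive WT members and 4 UMIs in 4 of 54 in Cd226-/-, and in other lymphocytes 31.7 against 10.1 CPM. Reads from the 3′ end of a partly deleted gene can remain, so these UMIs do not check the label. The DNAM-1 antibody tag differed more: WT members had a median of 41 counts (stromal cells 16), Cd226-/- members 2 (stromal cells 2) and naive members 9 (stromal cells 10). Above the 95th percentile of stromal cells were 26 of 35 WT members, 4 of 80 Cd226-/- members and 0 of 9 naive members. The CD45 protein tag was above the 99th percentile of stromal cells in 30 of 35, 69 of 80 and 8 of 9 members, so most members were leukocytes by protein as well.

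The cytokine minimum fell close to single-molecule signal. Exactly 1 cytokine UMI was held by 24 WT, 53 Cd226-/- and 12 naive CD45+ cells that met the other conditions, and exactly 2, the lowest value inside, by 8, 16 and 2. At least 10 UMIs were held by 7 WT, 30 Cd226-/- and 0 naive members, and at least 20 by 4, 18 and 0. In stromal cells, which should lack both cytokines, at least 2 cytokine UMIs were seen in 2 of 4201 WT, 0 of 2867 Cd226-/- and 0 of 151 naive CD45+ cells, at higher median depths (10223, 12642 and 15340 UMIs) than the members (6900, 5145 and 5681). Among cells with at least 10 UMIs of the macrophage C1q genes (median depths 7096, 8065 and 9866 UMIs), those with at least 2 cytokine UMIs were 2 of 515, 0.388% (0.0471–1.40), 3 of 548, 0.547% (0.113–1.59), and 1 of 1519, 0.0658% (0.00167–0.366).

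**Figure D1:**
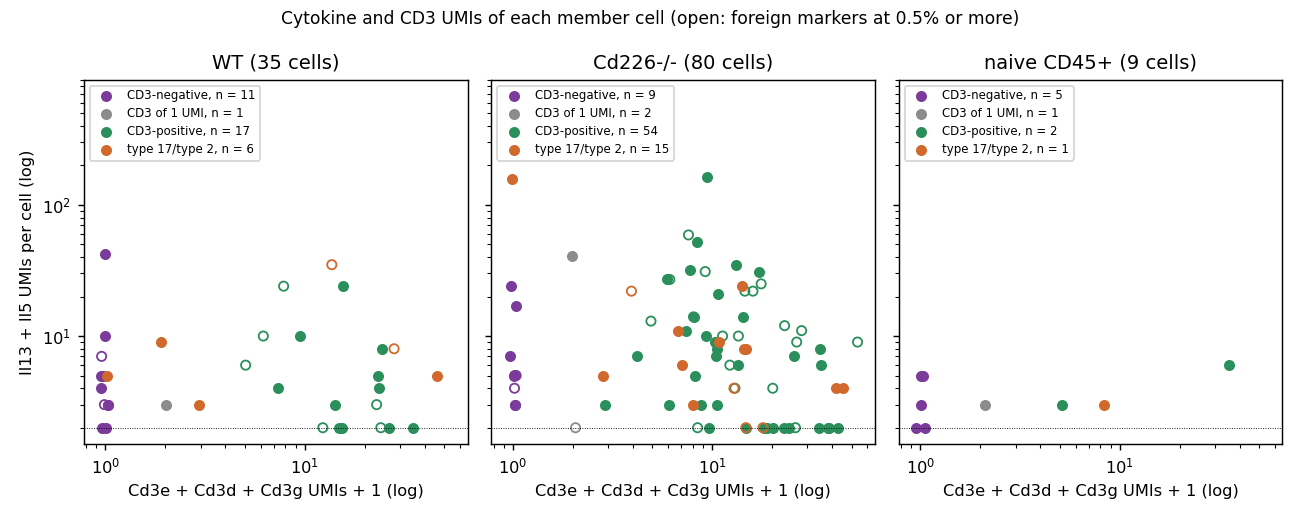
Each point is 1 member cell, by its CD3 UMIs plus 1 (x, log scale, with slight sideways jitter) and its Il13 plus Il5 UMIs (y, log scale), coloured by subset; open points are cells in which markers of macrophages, dendritic cells, neutrophils, keratinocytes or fibroblasts made up at least 0.5% of UMIs, and the dotted line is the minimum of 2. Cells with at least 20 cytokine UMIs number 18 in Cd226-/- and 4 in WT skin.

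Members took the largest share of lymphocytes in treated Cd226-/- skin and the smallest in naive CD45+ skin. Among cells that met the rule without its cytokine condition and held a Ptprc (CD45) UMI, members were 32 of 599 in WT, 5.34% (3.68–7.46), 71 of 890 in Cd226-/-, 7.98% (6.28–9.96), and 9 of 397 in naive CD45+ skin, 2.27% (1.04–4.26). The intervals of WT overlap with both others, those of Cd226-/- and naive skin do not. Among cells with at least 2 CD3 UMIs the shares were 3.83% (2.38–5.79; 21 of 549), 8.58% (6.72–10.7; 68 of 793) and 1.20% (0.249–3.48; 3 of 249), and here the intervals of the 2 treated libraries do not overlap. Median depth of the other lymphocytes was 5753 (WT), 5520 (Cd226-/-) and 7010.5 UMIs (naive CD45+), the reverse of the order of the shares, and its part in them was not tested beyond thinning. Random thinning of each cell to 2500 UMIs gave shares of 3.37% (12 of 356), 6.77% (36 of 532) and 1.22% (3 of 246), with 53, 83 and 9 cells of the gate left out as shallower. Of all members, 5 of 35 WT, 2 of 80 Cd226-/- and 0 of 9 naive ones were shallower. The part of this uneven loss in the thinned shares was not tested.

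**Figure D2:**
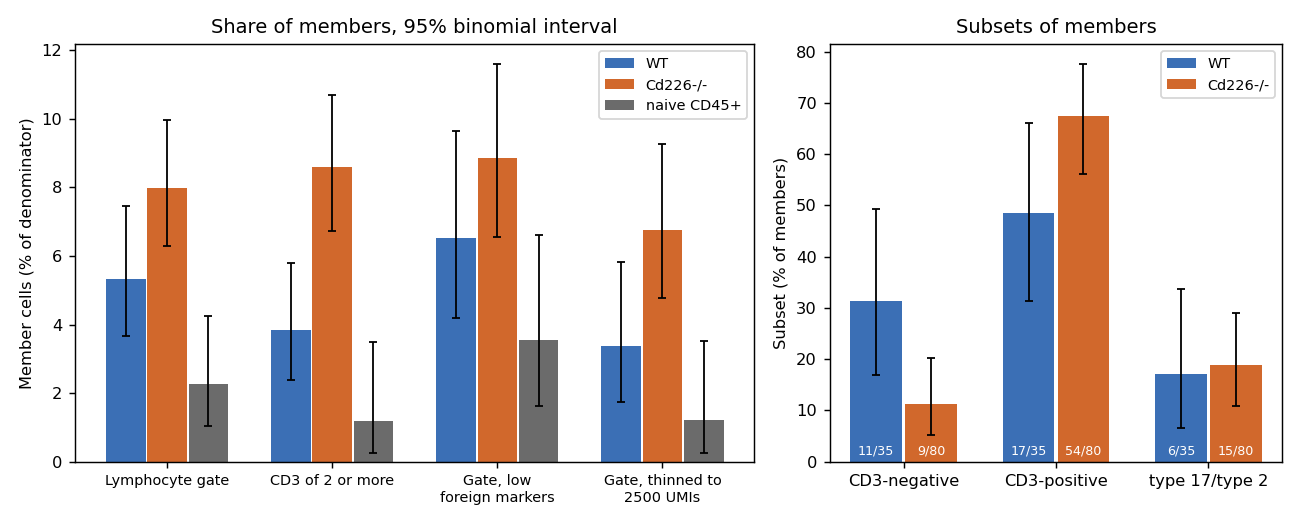
Bars give the percent of member cells in each denominator (left) and of each subset among members (right), with exact 95% binomial intervals; the counts stand in the bars on the right. Under all 4 denominators Cd226-/- is highest and naive CD45+ lowest, and the CD3-negative subset is the one with the larger share in WT.

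Il13 made up most of the cytokine signal. It had 263 UMIs in the 35 WT members, with a median of 4 and a highest value of 42 per cell, and 1053 UMIs in the 80 Cd226-/- members, with a median of 6 and a highest value of 154. The 9 naive members held 27 Il13 UMIs, at most 6 in a cell. Il5 was rarer and uneven. It had 4 UMIs in 2 WT cells, 131 UMIs in 21 Cd226-/- cells and 5 UMIs in 2 naive cells. Of the 131 UMIs in Cd226-/-, 109 were in 6 cells with at least 10 each. Both cytokines were found in 2 WT, 21 Cd226-/- and 0 naive CD45+ members, and the only cells with Il5 alone were 2 naive CD45+ ones. The single member of naive CD45- skin, a cell with no CD3 UMI, held 9 Il13, 4 Il5 and 1 Il4 UMI and was marked as a doublet by the caller described with the processing. Il4, the third gene of the cluster, had 5 UMIs in 4 WT and 17 UMIs in 12 Cd226-/- members and none in the naive CD45+ ones, so most members held Il13 with no Il4 UMI at this depth.

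The cells were split by CD3 and IL-17 genes. Type 17/type 2 cells, with at least 5 UMIs of Il17a and Il17f, were 6 cells of WT, 15 of Cd226-/- and 1 of naive CD45+ skin. Of the rest, 11, 9 and 5 held no CD3 UMI (CD3-negative), 1, 2 and 1 held exactly 1, and 17, 54 and 2 held at least 2 (CD3-positive). CD3-negative cells were 31.4% (16.9–49.3) of WT and 11.2% (5.28–20.3) of Cd226-/- members, CD3-positive cells 48.6% (31.4–66.0) and 67.5% (56.1–77.6), and type 17/type 2 cells 17.1% (6.56–33.6) and 18.8% (10.9–29.0). All 3 pairs of intervals overlap. Of the 9 naive members 5 were CD3-negative. In that library, cells with at least 2 CD3 UMIs numbered 249 beside 397 cells of the lymphocyte gate, against 549 beside 599 in WT and 793 beside 890 in Cd226-/-.

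CD3-negative members lacked T-cell receptor alpha transcripts. All of them held Rora and most held Gata3. No cell of the subset held a Trac, Cd4 or Cd8a UMI in any library, which allows up to 41.9, 40.0 and 87.5 CPM for each gene in WT, Cd226-/- and naive CD45+ skin. Trdc was at 2 or more UMIs in 1 of the 5 naive cells and in none of the treated ones. Markers of NK cells (Eomes, Klrb1c) were also at 0, except for Ncr1 with 4 UMIs in 1 WT cell. Gata3 stood at 266, 307 and 788 CPM in WT, Cd226-/- and naive CD45+ skin, against 55.0, 41.7 and 86.8 in other lymphocytes, and chose the cells in part. Its UMIs per cell ran from 0 to 6 (median 1), 0 to 11 (median 2) and 0 to 9 (median 7), so some cells held none. Rora, a transcription factor that ILC2 need, was outside the rule and stood at 671, 586 and 788 against 264, 289 and 170.3. It had a UMI in 11 of 11, 9 of 9 and 5 of 5 CD3-negative members.

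Of the markers by which ILC2 are usually recognised, Il1rl1, Klrg1 and Arg1 were sparse in these cells, while Icos and Il2ra were not. Il1rl1, the IL-33 receptor, had 0 UMIs in the 11 WT cells, 9 UMIs in 2 of the 9 Cd226-/- cells and 0 in the 5 naive cells. Klrg1 had 0, 2 and 7 UMIs and Arg1 0, 0 and 3. Il18r1, the IL-18 receptor chain, had 16 UMIs in 5 WT cells, 1 UMI in Cd226-/- and 29 UMIs in 3 naive cells, at 224, 13.3 and 846 CPM. Icos, a costimulatory receptor, stood at 336, 359.9 and 584, and Il2ra, the IL-2 receptor alpha chain, at 447, 333 and 204. These markers were mixed, so the subset goes by its rule here, not as ILC2.

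CD3-negative members were compared with CD3-positive members of the same library, with the CD3 genes left out. In WT, 1 CD3-negative cell held 26854 of the 71514 gene UMIs of its side, with 41 Trbc1 and 13 Trbc2 UMIs. That cell stayed in when cells with markers of other cell types were left out, where the side held 52817 UMIs. It thus weighs on every summed WT level and ratio of this subset. In WT, Calca, the gene for calcitonin and the neuropeptide CGRP, had 104 UMIs in 6 of 11 CD3-negative and 9 UMIs in 2 of 17 CD3-positive cells, 25.0-fold higher (12.7–56.2). In Cd226-/- cells with at most 1 CD3 UMI it had 161 UMIs in 6 of 11 cells and 64 UMIs in 11 of 54 CD3-positive cells, 15.1-fold higher (11.3–20.6). Calca was thus higher on the CD3-negative side in both genotypes, although 5 of 11 cells on that side had none in each and 1 cell held 67 of the 104 WT and 117 of the 161 Cd226-/- UMIs. Without cells that carried markers of other cell types (defined below with the comparison to other lymphocytes) it was at least 36.5-fold and 54.3-fold (33.6–92.7) higher. Gem, a small GTPase, was 3.52-fold (2.38–5.28) higher in WT and 6.39-fold (4.50–9.08) in Cd226-/-. Ctla2a, a cysteine protease inhibitor, was 2.09-fold (1.86–2.34) higher in WT, with UMIs in 11 of 11 cells. Cd83, an activation marker, was 6.26-fold (4.60–8.65) higher in WT, with 126 of its 162 UMIs in 1 cell. Serpinb1a and Nme1 were 4.33-fold (2.40–8.10) and 3.03-fold (1.65–5.68) higher.

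In Cd226-/- the gene farthest from equality was Hs3st1, a heparan sulfate sulfotransferase from the ILC2 list, with 39 UMIs in 6 of the 11 cells with at most 1 CD3 UMI and 0 in 54 CD3-positive cells, at least 78.3-fold higher. It had 0 UMIs in all 35 WT members. Areg, the gene for the repair factor amphiregulin, was 3.80-fold (3.24–4.45) higher on the same side, with 258 UMIs in 6 cells against 409 UMIs in 19 cells. Lmo4 and Pxdc1 were 12.3-fold (7.24–21.5) and 9.53-fold (4.39–21.5) higher. In WT, Areg stood at 965 in CD3-negative and 781 CPM in CD3-positive cells, with 103 of the 121 UMIs of the latter in 1 cell.

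T-cell and cytotoxic genes were lower in the CD3-negative cells of WT and in the Cd226-/- cells with at most 1 CD3 UMI. The Cd226-/- side here held 11 cells, of which 2 had exactly 1 CD3 UMI. Of all 1135 genes compared in WT, 17.1% were at least 1.5-fold higher and 22.0% lower (194 and 250, or 103 and 409 with trimmed-mean scaling, whose log2 factor was 0.32). Of 6 alpha-beta T genes 4 were lower and 1 higher (median log2 ratio -2.37, all genes -0.02), of 7 T-cell receptor signal genes 5 and 1 (median -1.53), and of 11 cytotoxic and type 1 genes 8 and 3 (median -3.45). Of 8 ILC2 genes 4 were lower and 2 higher (median -0.22, and -0.98 over 7 genes without the marked cells). In Cd226-/-, where 17.6% of 2945 genes were higher and 24.5% lower (518 and 722, or 338 and 1085 with a factor of 0.24), 11 of 11 alpha-beta T genes were lower (median -1.73), 8 of 10 signal genes (median -1.42) and 9 of 11 cytotoxic genes (median -2.23). Of 14 ILC2 genes 3 were lower and 2 higher there (median -0.08, all genes -0.11, and 0.30 over 8 genes without the marked cells).

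Single genes show the same split. Gzma, a granzyme of killer cells, had 0 UMIs in the CD3-negative WT cells and 326 UMIs in 6 CD3-positive cells, at least 50.2-fold higher there. In Cd226-/- it had 0 UMIs in the cells with at most 1 CD3 UMI and 333 UMIs in 7 CD3-positive cells, at least 18.4-fold higher. Trbc2, a T-cell receptor beta constant gene, was 3.33-fold (1.93–6.15) lower in CD3-negative WT cells. It was 8.83-fold (4.01–24.2) lower in Cd226-/- cells with at most 1 CD3 UMI. Trbc1 was not at 0 on the CD3-negative side, with 48 UMIs in 6 of 11 WT cells, 41 of them in 1 cell, and 13 UMIs in 7 of 9 Cd226-/- cells. Some genes on the CD3-positive side, such as Lyz2, Cd74 and H2-Aa in WT, are markers of macrophages or dendritic cells. Cd74 stood at 4669 CPM in CD3-positive and 196 in CD3-negative WT members, and at 287 and 227 without the cells that carried such markers. Dendritic and Langerhans markers summed to 8718 CPM in CD3-positive and 601 in CD3-negative WT cells, and to 9358 and 11037 in Cd226-/-. Without marked cells, WT medians were -2.67 for alpha-beta T, -1.69 for signal and -3.69 for cytotoxic genes. In Cd226-/- they were -0.87, -1.01 and -1.92. Any further part of these markers in the other differences was not tested. Fibroblast markers stood highest in CD3-negative WT cells, at 14585 CPM with up to 8.24% of 1 cell, and neutrophil markers in CD3-negative Cd226-/- cells, at 14636 with up to 6.31% of 1 cell.

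**Figure D3:**
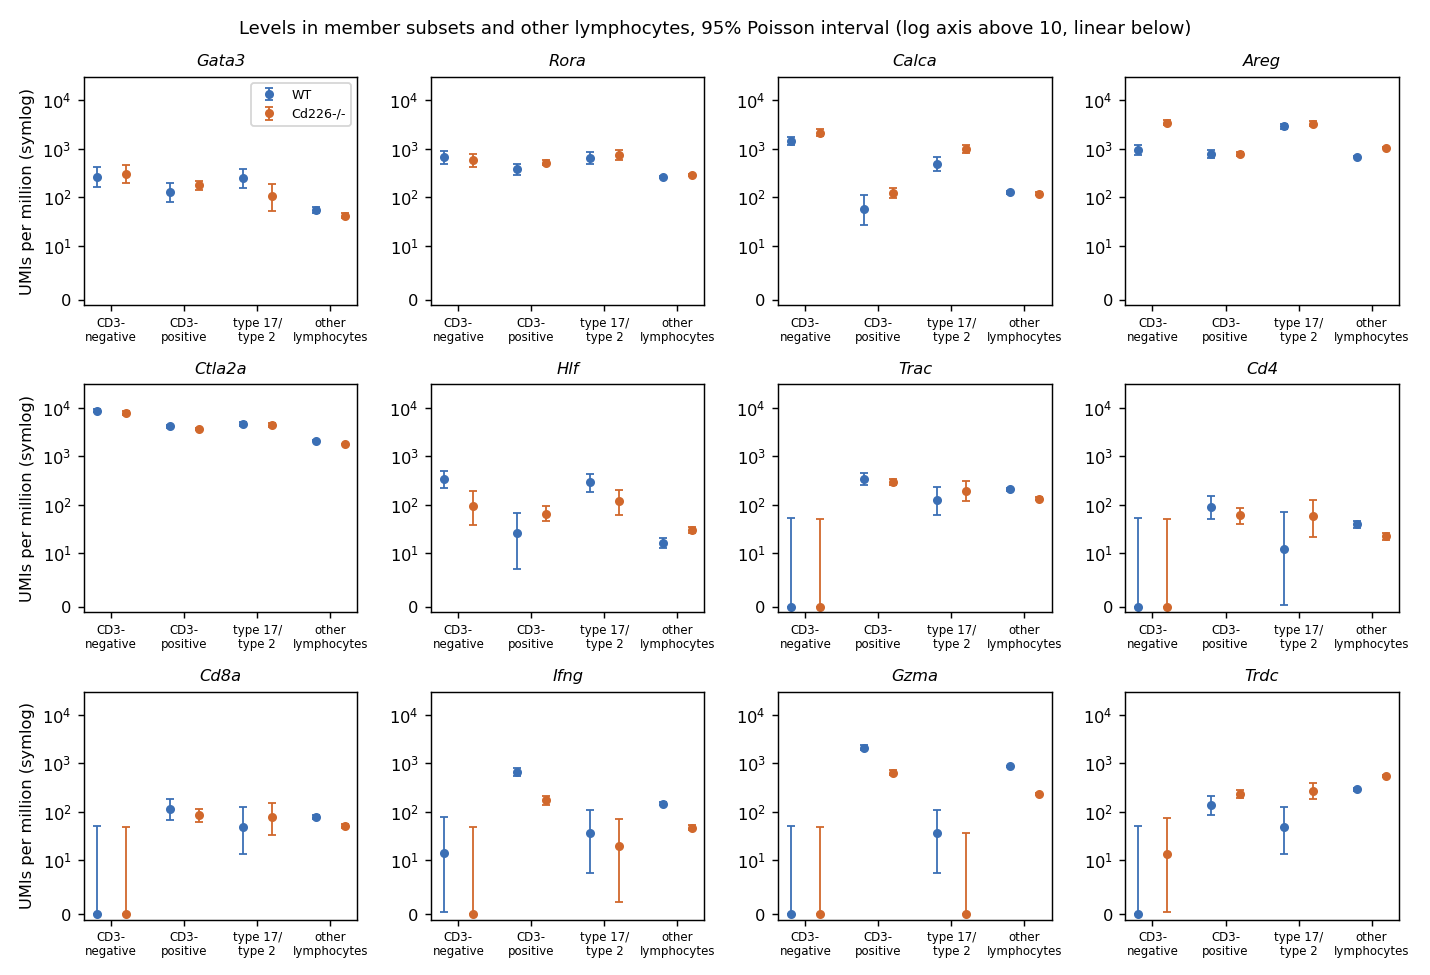
Each panel gives 1 gene as CPM (y, logarithmic above 10 and linear below) in the 3 member subsets and in other lymphocytes of WT and Cd226-/- skin, with exact 95% Poisson intervals. Calca is highest in CD3-negative members, Trac, Cd4 and Cd8a are at 0 there, and Ifng and Gzma are highest in CD3-positive members and higher in WT.

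CD3-positive members were not one kind of T cell. Trac, the alpha-beta receptor constant gene, had a UMI in 13 of 17 WT and 40 of 54 Cd226-/- cells. Cd4 had a UMI in 8 and 19 cells, and Cd8a with Cd8b1 at least 2 UMIs in 5 and 14, of which 1 and 2 also held Cd4. Trdc, the gamma-delta receptor constant gene, had at least 2 UMIs in 2 and 9 cells, and 2 and 10 cells held neither Trac nor 2 Trdc UMIs. In stromal cells Trac had a UMI in 0.405% (WT) and 0.279% (Cd226-/-). Foxp3, the factor of regulatory T cells, had 1 UMI in WT and 2 in Cd226-/- CD3-positive members.

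Il4 and the chemokine receptor genes Ccr4 and Ccr8 were sparse in these cells. The wider Th2 list is described below for all members. Il4 had 1 UMI in 1 WT cell and 14 UMIs in 9 Cd226-/- cells. Ccr4 had 1 and 7 UMIs and Ccr8, another chemokine receptor of Th2 cells, 0 and 3. Gata3, a rule gene, stood at 129 CPM in WT and 177 in Cd226-/-, with a UMI in 9 of 17 and 27 of 54 cells. Both levels were above those of other lymphocytes given earlier. Tnfsf8, the gene for CD30 ligand, stood at 271 and 439.8, against 60.6 and 59.6 in other lymphocytes. With Cd8 transcripts, Ifng and Gzma in part of the cells, the name Th2-like does not cover this subset, and it goes by its rule.

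Members of each library were then set against the other lymphocytes of the same gate. In WT, Calca was 5.46-fold (4.65–6.39) higher in members, Csf2, the growth factor GM-CSF, 21.9-fold (15.8–30.6) and Ccl1, the ligand of CCR8, 38.5-fold (30.6–48.6). Of the 278 Ccl1 UMIs in WT members, 205 were in 1 cell; without the richest cell of each side its log2 ratio was 3.80. Hlf, a transcription factor, had 56 UMIs in 16 of 35 members against 74 UMIs in 42 of 567 others, at 180.5 against 16.4 CPM (interval of the ratio 7.63–15.8), and Kit, the stem cell factor receptor, was 6.30-fold (4.41–8.89) higher. Kit is also a mast cell marker. The list of mast cell and basophil markers includes Cpa3, Mcpt8 and Mcpt4, which the rule itself capped. Of the 11 mast cell and basophil markers, 3 had UMIs in WT members (Kit, and Cyp11a1 and Cma1 with 1 UMI each) and 6 in Cd226-/- members, where Hdc had 45 UMIs in 5 cells, 39 of them in 1, and the markers reached 0.552% of the UMIs of a cell. Ms4a2 and Fcer1a, which code for the IgE receptor, were at 0 in WT, Cd226-/- and naive CD45+ members.

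In Cd226-/- the leading genes were partly others. Slc17a6, a vesicular glutamate transporter, had 80 UMIs in 16 of 80 members against 44 UMIs in 22 of 819 others, 16.7-fold higher (11.4–24.7). Tnfsf8 had 265 UMIs in 42 members, 6.26-fold higher (5.34–7.34). Tff1, a secreted trefoil peptide, was 27.6-fold (12.0–71.0) higher on 24 UMIs in 5 cells, Hs3st1 8.34-fold (5.26–13.2), Calca 3.90-fold (3.41–4.44), and Il10, an anti-inflammatory cytokine, 3.68-fold (2.85–4.72) on 8 cells, 1 of which held 49 of its 90 UMIs. Calca, Ccl1 and Tnfsf8 were among the 10 genes named in both genotypes.

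Areg, one of the markers given for these cells, was less specific. It stood at 1369.8 CPM in WT members against 686 in other lymphocytes, 2.00-fold higher (1.80–2.21), and at 1419 against 1051 in Cd226-/-, 1.35-fold (1.26–1.44). In Cd226-/- skin it was therefore under 1.5-fold, and without cells that carried markers of other cell types it was 1.03-fold (0.908–1.16) in WT and 0.897-fold (0.828–0.970) in Cd226-/-. The members held it unevenly, with a UMI in 16 of 35 and 36 of 80 cells.

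The leading genes of the 9 naive members were in part those of WT members. Hlf had 55 UMIs in 8 of 9 cells against 210 UMIs in 72 of 388 others, 12.7-fold higher (9.28–17.2). Tcrg-C4, a gamma-delta receptor constant gene, had 40 UMIs in 6 of 9 cells, 6.27-fold higher (4.39–8.73). Icos, Il18r1 and Kit were 3.72-fold (2.71–4.99), 4.32-fold (3.00–6.06) and 8.62-fold (4.09–16.5) higher. Hlf and Kit were thus among the 10 genes named in naive as in treated WT skin. Ifng, Xcl1, Gzmc and Ptgs2 had 0 UMIs in naive members. Treated and naive members were not set against each other as folds, since that comparison alone had been set to need 10 naive members; the folds above rest on 9 cells.

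Described by gene list, Th2 genes leaned to the members of both treated libraries. In WT, 15.6% of 9289 genes were at least 1.5-fold higher in members and 18.9% lower (1445 and 1756, or 1080 and 2134 with a trimmed-mean factor of 0.12), and of 13 Th2 genes 7 were higher and 1 lower (median log2 ratio 0.61, all genes 0.03). In Cd226-/-, with 6.81% of 10037 genes higher and 19.8% lower, 7 of 14 Th2 genes were higher and 1 lower (median 0.60, all genes -0.07). Of the ILC2 genes 4 of 18 were higher and 3 lower in WT (median 0.24), and 6 of 19 and 3 in Cd226-/- (median 0.38). In naive CD45+ skin, with 39.3% of 8210 genes higher and 19.0% lower (3229 and 1559, or 2366 and 2218 with a factor of 0.31), 12 of 20 ILC2 genes were higher and 1 lower (median 0.77, all genes 0.32). With cells that carried markers of other cell types left out, 6 of 18 were higher (median 0.30) where 24.5% of all genes were higher and 23.6% lower.

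The WT medians depended on cells with markers of other cell types. Markers of macrophages, dendritic cells, neutrophils, keratinocytes and fibroblasts together made up at least 0.5% of UMIs in 10 of 35 members and 238 of 567 other lymphocytes of WT, 27 of 80 and 345 of 819 of Cd226-/-, and 0 of 9 and 143 of 388 of naive CD45+ skin. Without these cells the WT medians were 0.02 for Th2 genes and -0.06 for ILC2 genes, and the Cd226-/- medians 0.55 and 0.37. Calca was then 3.33-fold (2.80–3.96), Hlf 6.35-fold (4.15–9.62), Csf2 6.01-fold (3.85–9.27) and Tnfsf8 1.60-fold (1.06–2.33) higher in WT members. In Cd226-/-, Slc17a6 stood at 216 against 12.7 CPM, Tnfsf8 was 7.31-fold (5.83–9.14) and Ccl1 1.24-fold (0.712–2.05) higher, so that Ccl1 no longer passed 1.5-fold there. In naive CD45+ skin, Hlf was 6.18-fold (4.50–8.36), Icos 2.14-fold (1.55–2.88) and Il18r1 2.37-fold (1.64–3.32) higher. The marked members were deeper, with median UMIs of 12319.5 against 3969 in WT and 16089 against 3546 in Cd226-/-, while a doublet caller marked only 2 and 1 members.

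Gamma-delta T and cell cycle genes were lower in treated members. Of all genes, 18.9% were lower and 15.6% higher in WT members, 19.8% and 6.81% in Cd226-/-, and 19.0% and 39.3% in naive members. Of the gamma-delta genes 7 of 10 were lower and 1 higher in WT (median -1.43), 9 of 11 and 0 in Cd226-/- (median -1.38), and 6 of 11 and 3 in naive CD45+ skin (median -0.67). Tcrg-C4 was higher in naive members, as given above. Trdc stood at 80.6 CPM in WT members against 288, 3.57-fold lower (2.41–5.54), at 211 against 549 in Cd226-/-, 2.60-fold lower (2.21–3.08), and at 255 against 747 in naive CD45+ skin, 2.93-fold lower (1.87–4.87). Blk, a kinase of IL-17-making gamma-delta T cells, had 0 UMIs in WT members and 1 in Cd226-/- members, against 115 and 237 in other lymphocytes. Of 15 cell cycle genes 7 were lower and 0 higher in WT (median -0.50), and 12 and 1 in Cd226-/- (median -1.21). In the naive members 11 were higher and 0 lower (median 1.27, all genes 0.32, and 0.28 without the richest cell of each gene). Without marked cells, 8 of 14 were higher and 4 lower there (median 0.83, and -0.66 without the richest cell of each gene). Of all genes, 24.5% were then higher and 23.6% lower. Mki67, a marker of cycling cells, was 3.03-fold (1.82–5.47) lower in Cd226-/- members and 2.07-fold (1.24–3.73) lower in WT members, where 1 cell held 14 of 15 UMIs, and its 16 UMIs in naive members came from 2 cells. In naive members 13 of 19 cytotoxic genes were lower and 3 higher (median -1.08).

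Cells that held IL-17 and type 2 transcripts at once were set against Il17 cells of the same library with no Il13 or Il5 UMI (113 in WT, 188 in Cd226-/-). The type 17/type 2 members were not cut on CD3, and held 0 to 44 CD3 UMIs (median 7) in WT and 0 to 43 (median 12) in Cd226-/-. A WT member with 22224 of the 80532 gene UMIs of its group had 1 CD3 UMI. Another WT member had 0, as did a Cd226-/- member. Such cells are not T cells by the cut used for the other subsets. Gamma-delta genes were lower in the type 17/type 2 members. In WT, Trdc had 4 UMIs in 2 of 6 members against 534 UMIs in 75 others, 16.7-fold lower (6.49–61.5), and in Cd226-/- 28 UMIs in 3 of 15 against 1248 UMIs in 126, 4.09-fold lower (2.81–6.17), with 20 of the 28 UMIs in 1 cell. Cd163l1, a scavenger receptor of gamma-delta T cells, had 0 UMIs in WT members, at least 6.17-fold lower, and was 4.83-fold (2.32–12.1) lower in Cd226-/-. Blk had 0 UMIs in the 6 WT and 1 UMI in the 15 Cd226-/- members, but a UMI in 54 of 113 and 92 of 188 other Il17 cells.

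The gamma-delta list was lower in both genotypes. In WT, 22.0% of 3112 genes were at least 1.5-fold higher and 20.9% lower (685 and 651, or 273 and 1219 with a trimmed-mean factor of 0.42), and 6 of 9 gamma-delta genes were lower and 0 higher (median -2.10, all genes 0.04). In Cd226-/-, with 19.5% of 4704 genes higher and 21.5% lower (917 and 1012, or 518 and 1571 with a factor of 0.28), 8 of 10 were lower and 0 higher (median -1.70, all genes -0.01). Alpha-beta genes had medians of -0.25 (1 of 6 lower) in WT and 0.55 (4 of 9 higher, 1 lower) in Cd226-/-; the WT median was 0.37 with at least 10 Il17 UMIs per cell, a change of sign. Trac was read in 3 of 6 and 9 of 15 members, while 3 and 5 held neither Trac nor 2 Trdc UMIs. Cd28, a costimulatory receptor, was 3.07-fold (1.92–4.74) higher in Cd226-/- members, with a UMI in 10 of 15.

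Type 17 genes were at lower levels in part. Il17a, 1 of the genes that chose the cells, stood at 3924 and 4058 CPM in WT and Cd226-/- members and at 18124 and 16254 in the other Il17 cells. Il22, a cytokine often made with IL-17, was 7.41-fold (6.29–8.79) lower in WT, where 1 of the 6 members held 145 of 146 UMIs, and 6.05-fold (5.09–7.25) lower in Cd226-/- members. Gzmb, a granzyme, was 28.7-fold (7.89–237) lower in WT, on 2 UMIs, and at least 35.9-fold lower in Cd226-/-. Il23r, the IL-23 receptor gene, had 0 UMIs in 6 WT and 15 Cd226-/- members and 26 UMIs in 20 and 50 UMIs in 39 other Il17 cells; at this depth 0 UMIs allow up to 37.3 and 29.1 CPM, against 40.4 and 44.5 in the others. Of 17 type 17 genes 9 were lower and 2 higher in WT (median -0.59), where 20.9% of all genes were lower and 22.0% higher. This WT median was -0.12 with at least 10 Il17 UMIs per cell and -1.38 without the richest cell of each gene. Of 19 genes 6 were lower and 3 higher in Cd226-/- (median -0.24), where 21.5% of all genes were lower and 19.5% higher. Th2 genes differed in sign, with 1 of 7 higher and 2 lower in WT (median -0.49) and 5 of 9 higher and 1 lower in Cd226-/- (median 0.73).

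Higher in type 17/type 2 members of both genotypes was Ctla2a, 2.87-fold (2.54–3.24) in WT and 3.96-fold (3.55–4.42) in Cd226-/-, with UMIs in 6 of 6 and 13 of 15 cells. Rgs2, a regulator of G protein signalling, was 3.66-fold (2.78–4.78) higher in WT. In Cd226-/-, Slc17a6 was 22.5-fold (11.8–44.9) higher with 31 UMIs in 5 of 15 members, Ramp3, a co-receptor for CGRP-family peptides, 3.94-fold (2.92–5.28) with UMIs in 11 of 15, and Pdcd1lg2, the gene for the PD-1 ligand PD-L2, 7.44-fold (3.59–15.0). Gata3, a rule gene for membership, stood at 248 against 46.6 CPM in WT and was also higher in Cd226-/-, at 107 CPM. The Cd226-/- members held it unevenly, with a median of 0 and at most 5 Gata3 UMIs per cell. Dendritic and Langerhans markers summed to 1962 CPM in WT and 12183 in Cd226-/- type 17/type 2 members. Without marked cells, 4 WT and 11 Cd226-/- members were set against 98 and 152 other Il17 cells. Median log2 ratios were then -1.72 and -2.31 for gamma-delta, -0.91 and -0.36 for type 17, and -0.94 and 0.43 for Th2 genes. All genes stood at -0.02 and 0.01. Any further part of these markers was not tested.

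**Figure D4:**
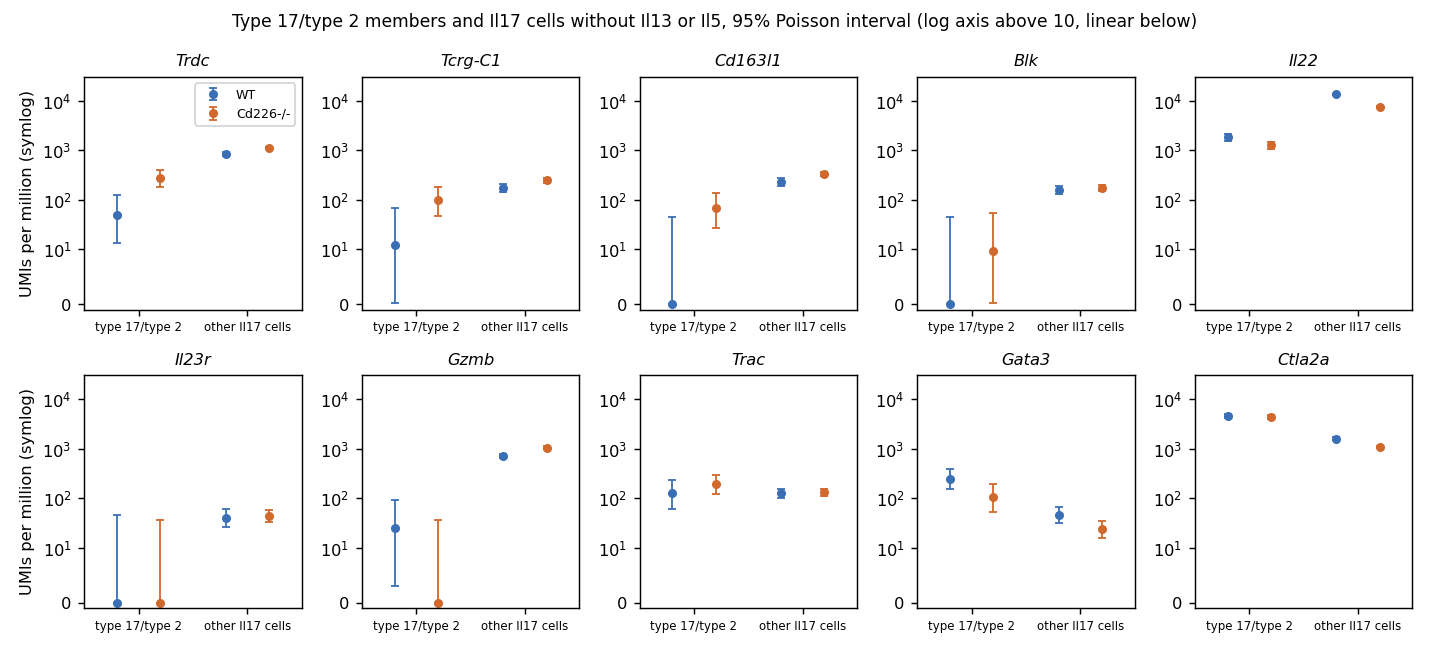
Each panel gives 1 gene as CPM (y, logarithmic above 10 and linear below) in type 17/type 2 members and in Il17 cells without Il13 or Il5, with exact 95% Poisson intervals. Trdc, Tcrg-C1, Cd163l1, Blk, Il22 and Gzmb are lower in the members of both genotypes, Gata3 and Ctla2a are higher, and the intervals of Trac overlap.

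The WT and Cd226-/- members were compared last, to ask how type 2 lymphocytes differed without DNAM-1. Type 1 genes were higher in WT members. Ifng, the gene for interferon-gamma, had 108 UMIs in 12 of 35 WT members and 91 UMIs in 9 of 80 Cd226-/- members, 348 against 128 CPM, 2.72-fold higher in WT (2.04–3.63). Xcl1, a chemokine of activated lymphocytes, had 190 UMIs in 6 WT and 26 UMIs in 7 Cd226-/- cells, 16.7-fold higher in WT (11.1–26.3), with 87 of the WT UMIs in 1 CD3-negative cell. Single cells held 53 of the 108 Ifng UMIs in WT and 41 of the 91 in Cd226-/-. Without the richest cell of each library the log2 ratios of Cd226-/- over WT were -1.33 for Ifng and -4.56 for Xcl1. Ccl1 was 9.94-fold (7.55–13.3) higher in WT, with 205 of 278 UMIs in 1 cell, and Cd160, a receptor of cytotoxic lymphocytes, 6.30-fold (2.70–16.4), with 22 against 8 UMIs.

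The difference in Ifng lay in CD3-positive members. There it had a UMI in 9 of 17 WT and 8 of 54 Cd226-/- cells, at 672 and 171 CPM, 3.93-fold higher in WT (2.93–5.28). Thinned to 1000 UMIs, 34.5% and 8.80% of these cells held one, and in stromal cells 0.0952% and 0.140% did. Gzma was 3.29-fold (2.82–3.85) higher in WT, with UMIs in 6 of 17 and 7 of 54 cells, and Cd28 4.41-fold (2.94–6.65), with UMIs in 9 and 25. Other lymphocytes of the same libraries had Ifng at 148 CPM in WT and 47.3 in Cd226-/-, and Gzma at 868 and 237, so the order of the libraries was the same outside the members.

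As a group, 7 of 15 cytotoxic and type 1 genes were at least 1.5-fold lower in Cd226-/- members and 2 higher (median log2 ratio of Cd226-/- over WT -0.58, all genes -0.01), where 12.6% of 4365 genes were lower and 13.7% higher (549 and 598, or 366 and 821 with a trimmed-mean factor of -0.14). The 2 higher were the chemokine genes Ccl3 and Ccl4. In CD3-positive members 6 of 13 were lower and 0 higher (median -0.57, all genes 0.04), where 12.0% of 3162 genes were lower and 16.7% higher (380 and 527, or 255 and 688 with a factor of -0.13). Gzmb, Nkg7 and Prf1, all of the same killing machinery, differed by less than 1.5-fold between all members of the 2 genotypes, at 201 against 235, 493 against 587 and 35.2 against 51.6 CPM in Cd226-/- and WT.

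**Figure D5:**
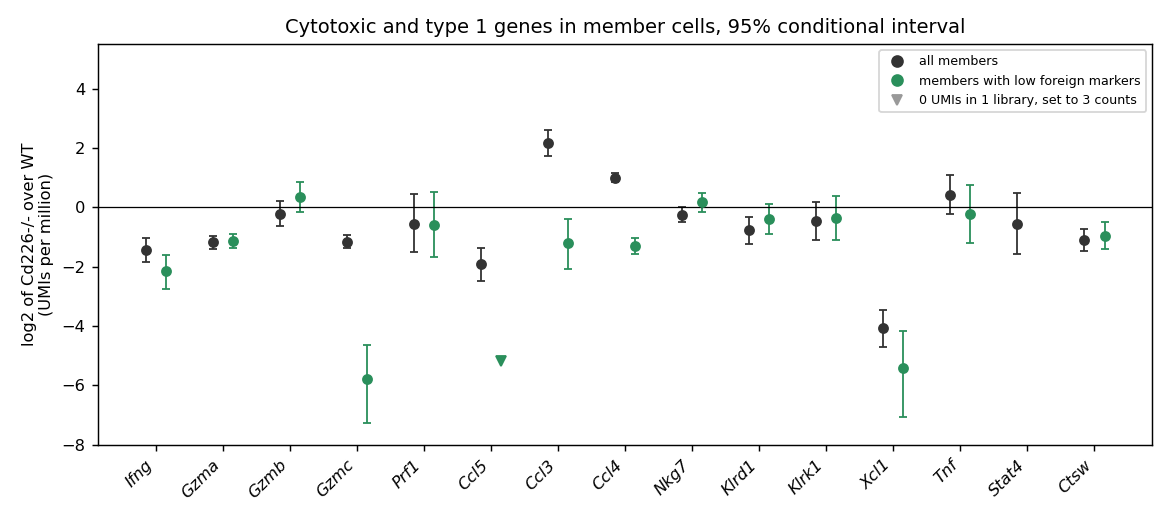
Points give the log2 ratio of Cd226-/- over WT members for each cytotoxic and type 1 gene compared, over all members (dark) and over members with under 0.5% of UMIs from markers of other cell types (green), with exact 95% intervals of counting error; a triangle marks a gene with 0 UMIs in 1 library, set to 3 counts. Ifng, Gzma, Xcl1 and Ctsw lie below 0 in both, Ccl3 and Ccl4 move from above to below 0, and the intervals of Gzmb, Nkg7, Prf1, Klrk1 and Tnf reach across 0 in both.

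Several genes higher in Cd226-/- members are known from myeloid cells. Ptgs2, the inducible cyclooxygenase, had 423 UMIs in 21 of 80 Cd226-/- and 8 UMIs in 4 of 35 WT members, 23.1-fold higher (11.6–53.9). Clec4e, a receptor of macrophages, was 19.1-fold (7.33–70.9) higher, Il1b 5.20-fold (4.33–6.30) and Tgfbi 5.15-fold (3.55–7.75). In CD3-positive members Ptgs2 was 14.5-fold (6.95–36.3) and Cd14, the co-receptor for bacterial lipopolysaccharide, 5.87-fold (3.56–10.4) higher. Summed markers of dendritic and Langerhans cells stood at 4999 CPM in WT and 9794 in Cd226-/- members, and those of macrophages and monocytes at 2198 and 2846.

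The comparison was therefore repeated over the 25 WT and 53 Cd226-/- members with few such markers. Ifng was then 4.48-fold (3.04–6.72) and Xcl1 42.8-fold (17.9–134) higher in WT, and 9 of 14 cytotoxic genes were lower in Cd226-/- and 0 higher (median -1.04), where 15.4% of 2102 genes were lower and 12.4% higher. Among CD3-positive members 8 of 12 were lower and 0 higher (median -1.92), where 13.3% of 1161 genes were lower and 15.6% higher. Ccl3 and Ccl4 were now 2.33-fold and 2.47-fold lower in Cd226-/-. Ptgs2 had 6 UMIs in 4 Cd226-/- cells and 1 UMI in WT, Clec4e 3 UMIs in 1 cell and 0, Il1b 6 UMIs and 2, and Cd14 9 UMIs and 3. Nearly all UMIs of these myeloid genes had thus been in the cells left out.

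The genes farthest up in Cd226-/- were now others. Slc17a6 had 55 UMIs in 12 of 53 Cd226-/- members and 0 in 25 WT members, at least 12.2-fold higher in Cd226-/-. Tnfsf8 was 3.20-fold (2.17–4.84) higher there, Ccr7, a homing receptor for lymph nodes, 9.69-fold (3.97–30.7) with 42 of 73 UMIs in 1 cell, and Thy1, a surface protein of T cells and innate lymphoid cells, 2.91-fold (2.05–4.21). Il22 and Trdc were 11.6-fold (5.45–29.4) and 5.64-fold (3.09–11.3) higher, on 7 and 9 cells. Over all members Il22 had gone the other way, 2.62-fold (2.06–3.33) higher in WT, with 145 of 152 UMIs in 1 WT cell that carried such markers. Il10 had 52 UMIs in 3 Cd226-/- cells, 49 of them in 1, against 2 UMIs in WT.

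Genes that ILC2 and Th2 cells share differed little between genotypes over all members. Rora stood at 553 in Cd226-/- and 522 CPM in WT members, Icos at 650.5 and 561, Il2ra at 413 and 442, and Areg at 1419 and 1369.8, with ratios of Cd226-/- over WT from 0.934 (0.760–1.15) to 1.16 (0.972–1.39). Over the members with few markers of other cell types, Rora was 1.63-fold (1.29–2.08), Areg 1.63-fold (1.42–1.88) and Icos 1.44-fold (1.17–1.78) higher in Cd226-/-. Of 15 ILC2 genes 4 were higher and 3 lower in Cd226-/- (median 0.21), and of 10 Th2 genes 1 and 2 (median 0.11). With marked cells left out, 6 of 13 ILC2 genes were higher and 1 lower (median 0.53). Of 14 type 17 genes 1 was higher and 2 lower over all members (median 0.09), and 6 of 12 were higher and 1 lower with marked cells left out (median 0.59). With 1 library of 3 pooled mice per genotype, mouse, library and genotype cannot be told apart in any of these differences.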

How the data were processed

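Each deposited matrix gives raw UMI counts for genes by cell barcodes. The authors made these counts with Cell Ranger 3.1.0 on genome build mm10, per the submitters' processing notes, for 31053 genes and 2 antibody tags, of CD45 and of DNAM-1. No source used here gives the annotation release or the cell filters. CD45+ and CD45- cells of treated skin had been sorted and mixed in equal parts, per the labels, so shares among all cells carry that mixing. Barcodes with at least 500 genes, at least 1000 gene UMIs and at most 10% mitochondrial UMIs were kept. Member cells and the 24 gene lists were chosen with earlier results of these data known.

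UMIs were summed over cells per library. Genes with at least 30 UMIs over both sums were compared as ratios of CPM with exact conditional binomial intervals (Poisson intervals for levels, Clopper-Pearson intervals for shares, all 95% and for counting error only), and a gene with 0 UMIs on 1 side was set to a floor of 3 counts. Rule genes were left out of list counts. Named genes were up to 10 each way with the interval bound farthest from equality, past 1.5-fold by totals, by trimmed-mean scaling and without the richest cell of each side, with UMIs in at least 5 cells of the higher side and at no less there than in all kept cells of the library; ribosomal, mitochondrial, haemoglobin, immunoglobulin, receptor-segment, sex-linked and unnamed-model genes were left out. The richest cell was the cell with the most UMIs of the gene on that side, taken for each gene separately. Marker and list genes may be named for their level. Thinning used 100 random draws.

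Doublets were called with Scrublet in scanpy 1.11.5 (170 cells in WT, 161 in Cd226-/-, and 178 and 602 in the naive CD45+ and CD45- libraries) and not removed; in naive CD45+ cells its own threshold marked under 0.5%, so the highest scores were taken there. Leaving out cells with 0.5% or more of their UMIs from markers of other cell types, and thinning to 2500 UMIs, were chosen after seeing the data. The code was tested on simulated data. The code ran in Python 3.11.15 with pandas 2.3.3, numpy 2.4.6, matplotlib 3.10.9 and scipy 1.17.1. Promoters are from RefSeq (GRCm38.p6).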

Additional observations from a re-analysis of the deposited data

How the results depend on the processing

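No paired analysis was possible because each group is 1 library and the labels carry no replicate numbers, and for the same reason no library could be left out in turn. Of the summary values under an alternative, 216 stayed within their error or within 1.5 times, 71 moved and 3 changed sign; of the values of single genes 633 stayed, 157 moved and 2 changed sign, and 10 gave no value because the floor of 3 counts sets no bound. The cause of the changes was not tested. The member share over all cells with a Ptprc UMI was 1.71% (WT), 2.31% (Cd226-/-) and 0.291% (naive CD45+). Thinned to 1000 UMIs, the shares of the lymphocyte gate were 0.948%, 3.54% and 0%, and the type 17/type 2 share of WT members was 0%. Thinned to 2500 UMIs the WT share was 3.37%.

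Counts of genes past 1.5-fold depended on the settings, in part because the number of genes compared changed. Between genotypes over all members, 13.7% of 4365 genes were higher and 12.6% lower, and without marked cells 12.4% and 15.4% of 2102. In CD3-positive members these were 16.7% and 12.0% of 3162, and 15.6% and 13.3% of 1161. In naive members against other lymphocytes, 39.3% of 8210 genes were higher, and without marked cells 24.5% of 6000. The richest cell was left out gene by gene on each side, so it can be a different cell for each gene. Between genotypes over all members, 954 genes were higher in Cd226-/- and 323 lower without the richest cell. These were 1358 and 1654 with a minimum of 10 UMIs, and 261 and 324 without cells that carried markers of other cell types. For CD3-positive members the same settings gave 973 and 211, 1305 and 1149, and 181 and 154. In members against other lymphocytes, leaving out the richest cell gave 686 higher and 3153 lower in WT and 313 and 3027 in Cd226-/-. A minimum of 10 UMIs gave 2960 higher in WT, 1509 in Cd226-/- and 5484 in naive skin, and leaving out marked cells gave 1002 lower in WT and 1471 higher in naive skin. For CD3-negative against CD3-positive WT members, trimmed-mean scaling gave 103 higher and 409 lower, no richest cell 84 and 556, 10 UMIs 874 and 873, and no marked cells 108 and 152. In Cd226-/- these were 338 and 1085, 186 and 1506, 1660 and 1477, and 146 and 265. For type 17/type 2 members against other Il17 cells, the first 3 settings gave 273 and 1219, 121 and 1669, and 2260 and 1211 in WT. In Cd226-/- trimmed-mean scaling gave 518 and 1571, no richest cell 347 and 1755, 10 UMIs 2585 higher, and no marked cells 598 and 615.

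Median log2 ratios of lists moved as well. Without marked cells, ILC2 genes stood at 0.53 between genotypes, cytotoxic genes at -1.92 between genotypes in CD3-positive members, and in WT members against other lymphocytes Th2 genes at 0.02 and ILC2 genes at -0.06, the latter a change of sign. Gamma-delta genes of Cd226-/- members were at -1.87 without the richest cell and -2.22 without marked cells. Cell cycle genes without the richest cell were at -1.68 in WT, -1.88 in Cd226-/- and 0.28 in naive members. Type 17 genes of WT type 17/type 2 members were at -1.02 with trimmed-mean scaling, -1.38 without the richest cell and -0.12 with at least 10 Il17 UMIs per cell. Alpha-beta genes there were at -1.02 without the richest cell, -0.94 without marked cells, 0.04 with a minimum of 10 UMIs and 0.37 with at least 10 Il17 UMIs per cell, and changed sign under the last 2. Between genotypes over all members, Ccl3 (-1.22) and Csf2 (0.26) changed sign without marked cells. For a gene at 0 in all members, such as Ms4a2, the count allows up to 9.67 CPM in WT, 4.22 in Cd226-/- and 40.3 in the naive CD45+ library.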
